A study of Mus musculus with 27 samples.

Results

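The Krüppel-like factors Klf2, Klf4 and Klf5 were followed through 10 days of differentiation of mouse embryonic stem cells that carried a short hairpin RNA (shRNA) against Sox17 or a control shRNA. All probe sets that the platform's annotation assigns to these 3 genes by symbol were taken, which gave 6 of 45101 probe sets and 3 of the 18194 genes with a probe set of their own. The genes were chosen by their differences between the arms, which run in different ways in the 3 genes, so those differences are given as a description with no test. The tests on the members compare days within the control arm. Their spread is estimated from all 27 arrays, those of the Sox17 shRNA arm included. Differentiating cells of the AB2.2 line had been infected with a lentivirus encoding enhanced green fluorescent protein and a hairpin, against Sox17 in 1 arm and against firefly luciferase, which mouse cells lack, in the control arm. Both arms therefore carry virus and fluorescent protein and were sorted for it, grown as embryoid bodies in hanging drops and plated between days 4 and 5. Cells were taken on days 0, 2 and 4 and, once plated, on days 5, 6, 8 and 10, with 2 arrays per arm and day, except for 1 array of the Sox17 shRNA arm on day 0 (27 arrays, 14 groups). The labels call the replicates biological but do not say whether they are separate infections, so the p-values measure the spread between these cultures only.

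Klf2, Klf4 and Klf5 are zinc finger transcription factors that bind GC-rich and CACCC-type DNA. In mouse embryonic stem cells they support the naive pluripotent state, with overlapping functions. The cytokine LIF acts through STAT3 to sustain Klf4 and Klf5, and Klf2 is tied to the Mek5, Erk5 and Mef2 route. Later in development Klf2 is known for quiescent endothelium under flow, Klf4 for epithelial barriers, endothelium and smooth muscle, and Klf5 for proliferating epithelium, trophoblast and smooth muscle. Embryoid bodies are mixtures of such cells, and on bulk arrays fewer cells of a type and less RNA per cell cannot be told apart.

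The promoters of Klf2 and Klf4 are shown. They are the 250 bases before the annotated start, read 5′ to 3′ on the gene's strand, from RefSeq's table for GRCm38.p6. That table matched 2 of the 3 genes, and Klf5 is left out because it had no match. The Klf2 window lies at chr8:72318812-72319061 on the plus strand and the Klf4 window at chr4:55532476-55532725 on the minus strand, both directly upstream of the gene. Capitals mark the GC box GGGCGG on either strand and, in Klf2, a Mef2 element.
Klf2: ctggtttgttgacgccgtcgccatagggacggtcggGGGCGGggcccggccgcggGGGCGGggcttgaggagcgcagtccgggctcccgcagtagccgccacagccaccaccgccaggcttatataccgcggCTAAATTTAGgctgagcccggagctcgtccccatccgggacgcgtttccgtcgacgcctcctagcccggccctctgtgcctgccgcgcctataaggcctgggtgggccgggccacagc
Klf4: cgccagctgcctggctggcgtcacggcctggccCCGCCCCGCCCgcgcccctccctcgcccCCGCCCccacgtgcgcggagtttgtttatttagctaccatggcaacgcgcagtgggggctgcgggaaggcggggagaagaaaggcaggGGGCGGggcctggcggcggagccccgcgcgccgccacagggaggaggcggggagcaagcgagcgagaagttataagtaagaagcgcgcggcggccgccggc
The Klf2 window held 2 GC boxes, from 214 to 209 and from 195 to 190 bases upstream of the start. The Klf4 window held 4, of which the 2 farthest from the start overlap by 1 base. A GC box on either strand was found in 32.7% of 32851 RefSeq windows of the same length. The Mef2 element of Klf2 lies 118 to 109 bases upstream, and 1.69% of the windows held such an element. A CACCC box, present in 52.0% of the windows, occurred in Klf2, 19 to 15 bases upstream on the minus strand. Neither window held ACAAT, a core that Sox proteins bind (27.7% of windows), or the STAT motif TTCNNNGAA (7.02%). The match to a motif is a description of these letters and not a measured site.

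The deposited values are on the log2 scale of RMA, which sets all arrays to the same distribution, so a difference is measured against the remaining genes of the array. Replicate arrays correlated at 0.964 to 0.998 over all probe sets. Sox17 stood at 3.69 to 3.92 on day 0 and at 9.35 to 10.66 in the control arm from day 4 on. In the Sox17 shRNA arm it was lower on 9 of 10 arrays from day 4 on, at 5.53 to 9.39, or 10.08 on day 5 replicate 2. The array of that arm on day 6 replicate 2 (9.39) lay between its controls, and on day 4 the replicates stood at 5.53 and 9.39. The control probe sets for bacterial bioB, a transcript added to the labelling reaction or the hybridisation, read 8.86 to 9.37 on days 0 and 2 and on day 4 replicate 1 of both arms, 7.67 on day 5 replicate 1 of the Sox17 shRNA arm, and 6.19 to 7.01 on the others. Comparisons of days 0 and 2 with later days thus run across this step. The actin 3′ minus 5′ difference, a sign of RNA quality, was 0.327 to 0.862 and highest on day 4 replicate 2 and day 6 replicate 2 of the Sox17 shRNA arm (0.862 and 0.753). Day 0 cells carried the stem cell markers Pou5f1 (12.35 to 12.59) and Nanog (11.31 to 11.67).

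Of the 3 genes Klf2 lay farthest below day 0 in the control arm from day 4 on, with its low point on day 5. On probe set 1448890_at its control arrays read 11.89 and 11.75 on day 0, 7.58 and 7.76 on day 2, 6.07 and 5.83 on day 4, and 5.01 and 4.93 on day 5. They then read 7.36 and 7.25 on day 6, 7.08 and 6.92 on day 8, and 6.49 and 6.42 on day 10. Control replicates differed by 0.24 at most, so the low point on day 5 and the higher level on day 6 were each seen on both arrays. Relative to day 0, Klf2 fell by 4.15 ± 0.28 (log2, SE of the fit, n = 2 arrays per day) on day 2, which is 17.7-fold (limma, adjusted p = 3.42e-09). On day 5 the fall was 6.85 ± 0.28, or 115-fold (limma, adjusted p = 1.44e-12). By the size of the change Klf2 ranked 16th on day 2 and 5th on day 5 among 13297 genes tested. RMA values level off near background, so such folds are understated.

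Step by step, Klf2 fell 3.29-fold from day 2 to day 4 (limma, adjusted p = 0.000160). From day 4 to day 5 it fell by 0.98, or 1.98-fold (limma, adjusted p = 0.0310). That call did not hold when day 4 replicate 1 (adjusted p = 0.224), day 5 replicate 1 (0.166) or day 5 replicate 2 (0.128) of the control arm was left out. From day 5 to day 6 Klf2 rose by 2.34 ± 0.28, or 5.05-fold (limma, adjusted p = 1.86e-05). The changes from day 6 to day 8 (-0.31, limma, adjusted p = 0.517) and from day 8 to day 10 (-0.54, adjusted p = 0.973) did not pass the test. In a fit of the control arm alone the step from day 8 to day 10 did pass (limma, adjusted p = 0.0203). The rise on day 6 spans the days just after plating and lies wholly on arrays of low bioB signal. Of all genes, 32.5% passed the test between days 2 and 4, 10.2% between days 4 and 5, 17.9% between days 5 and 6, 8.33% between days 6 and 8 and 0.353% between days 8 and 10, in either direction.

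Klf4 fell on day 2 as Klf2 did, but its later course was a partial return towards the stem cell level. On probe set 1417394_at the control arrays read 10.75 and 10.92 on day 0, 6.16 and 6.42 on day 2, 6.04 and 6.89 on day 4, and 7.12 and 7.61 on day 5. They went on at 8.53 and 7.65 on day 6, 9.23 and 9.63 on day 8, and 9.48 and 9.25 on day 10. The day 8 and day 10 arrays all lay above every control array of days 2 to 6 and below both day 0 arrays. Klf4 fell by 4.55 ± 0.45, or 23.3-fold, from day 0 to day 2 (limma, adjusted p = 4.29e-07), the 11th largest change of 13297 genes. On day 5 it was 11.1-fold below day 0 (limma, adjusted p = 3.29e-06), on day 6 6.70-fold (3.91e-05), on day 8 2.65-fold (0.00938) and on day 10 2.77-fold (0.00714). The call on day 8 did not hold without day 0 replicate 2 (adjusted p = 0.0513) or without day 8 replicate 1 (0.0685).

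The rise of Klf4 was spread over several days, and no step between neighbouring days passed the test. The steps were 0.18 from day 2 to day 4 (limma, adjusted p = 0.792), 0.90 to day 5 (0.221), 0.72 to day 6 (0.296), 1.34 to day 8 (0.0730) and -0.07 to day 10 (0.999899). In a fit of the control arm alone the steps to day 5 (limma, adjusted p = 0.0283) and to day 8 (0.00299) did pass. From day 5 to day 10, a comparison chosen after the values were seen because both days have low bioB signal, Klf4 rose by 2.00 ± 0.45, or 4.00-fold (limma, adjusted p = 0.00162). Klf2 rose 2.80-fold over the same days (limma, adjusted p = 0.000359), with its rise between days 5 and 6. Klf5 rose 1.79-fold (limma, adjusted p = 0.0269), a call that each of the 4 left-out arrays ended (adjusted p 0.0594 to 0.140). Of all genes, 42.7% passed this test in either direction.

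Klf5 fell less than the other 2 genes on days 2 and 4, and from day 6 on it lay farther below day 0 than Klf4 did. On day 5 the differences of Klf5 and Klf4 from day 0 were close (-3.49 ± 0.29 and -3.47 ± 0.45). On probe set 1451021_a_at the control arrays read 11.25 and 11.03 on day 0, 8.16 and 8.41 on day 2, 8.12 and 8.59 on day 4, and 7.56 and 7.74 on day 5. They read 7.59 and 7.67 on day 6, 8.08 and 8.43 on day 8, and 8.49 and 8.50 on day 10. Days 5 and 6 were the low point, below every other control array. Klf5 fell by 2.86 ± 0.29, or 7.25-fold, from day 0 to day 2 (limma, adjusted p = 6.84e-07), which ranked 85th. The largest fall was 11.4-fold, on day 6 (limma, adjusted p = 1.23e-08), and on day 10 Klf5 was 6.27-fold below day 0 (limma, adjusted p = 3.27e-07). Of the later steps none passed the test (0.07, -0.70, -0.02, 0.63 and 0.24, limma adjusted p 0.14 to 0.999899). In the control arm alone the step to day 5 (limma, adjusted p = 0.00459) and that to day 8 (0.0102) passed.

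All 3 genes were called lower than day 0 on each of the 6 later days of the control arm. The share of all genes called lower was 15.4% on day 2, 23.6% on day 4, 32.3% on day 5, 35% on day 6, 40.3% on day 8 and 40% on day 10, so the call itself was common and the size of the early fall less so. Between arrays of high bioB signal, control day 4 replicate 1 minus the day 0 mean was -5.75 for Klf2, -4.79 for Klf4 and -3.03 for Klf5. Between arrays of low signal, the control day 10 mean minus day 4 replicate 2 was 2.48 for Klf4, 0.62 for Klf2 and -0.09 for Klf5. The first comparison holds no late array and the second no day 0 array.

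**Figure D1:**
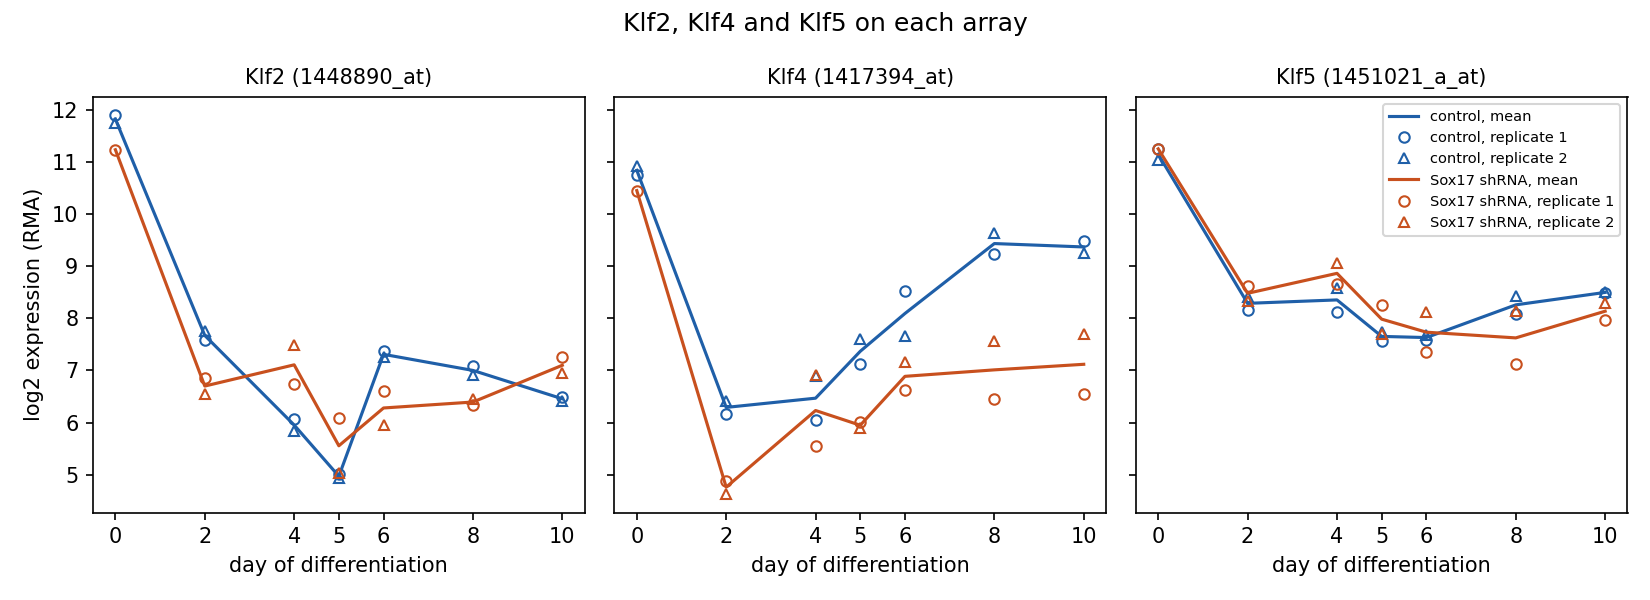
Log2 RMA expression of Klf2, Klf4 and Klf5 (probe sets 1448890_at, 1417394_at and 1451021_a_at) against day of differentiation, with each array as a symbol (circle for replicate 1, triangle for replicate 2) and lines through the arm means (blue for control, orange for Sox17 shRNA). All 3 fall from day 0 to day 2, and control Klf4 returns to 9.23 to 9.63 by day 8 while the Sox17 shRNA arrays stay at 6.46 and 7.56.

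**Figure D2:**
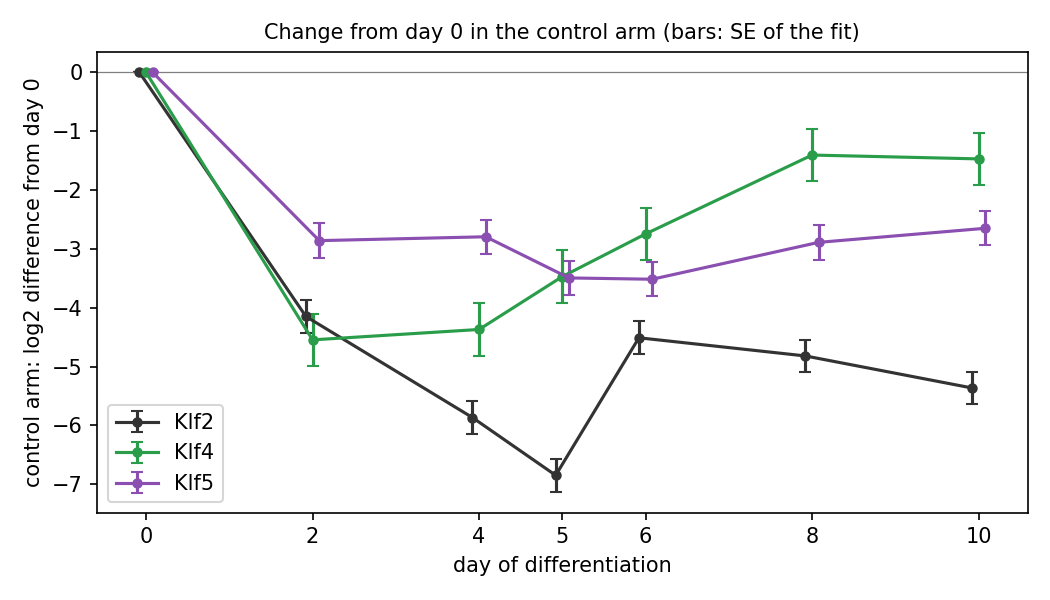
Log2 difference of each day from day 0 in the control arm, against day of differentiation, for Klf2, Klf4 and Klf5, with bars for the SE of the fit. Klf2 has its low point of -6.85 on day 5, Klf4 rises from -4.55 on day 2 to -1.47 on day 10, and Klf5 lies between -3.51 and -2.65 from day 2 on.

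Between the arms, the Klf4 level was lower with Sox17 shRNA on nearly all days, and by most on days 8 and 10. The Sox17 shRNA arrays of probe set 1417394_at read 10.45 on day 0, 4.89 and 4.64 on day 2, 5.55 and 6.91 on day 4, 6.00 and 5.89 on day 5, 6.61 and 7.16 on day 6, 6.46 and 7.56 on day 8, and 6.54 and 7.70 on day 10. Arrays of the arms overlapped on day 4 and did not on the other 6 days, all with Sox17 shRNA lower. The difference (Sox17 shRNA minus control, log2) was -0.39 on day 0, -1.53 on day 2, -0.24 on day 4, -1.42 on day 5, -1.21 on day 6, -2.42 on day 8 and -2.25 on day 10. As folds, Klf4 was 2.89-fold lower on day 2, 5.36-fold lower on day 8 and 4.76-fold lower on day 10. Averaged over days 4, 5, 6, 8 and 10 it was 2.84-fold lower. The replicates of the Sox17 shRNA arm differed by up to 1.37 (day 4), and those of the control by up to 0.88 (day 6).

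The rise of Klf4 seen in the control arm from day 5 to day 10 was smaller in the Sox17 shRNA arm, where the group mean went from 5.95 to 7.12. On day 2, when Sox17 averaged 6.09 in the control arm and 4.80 with Sox17 shRNA (arrays 6.01 and 6.17 against 5.12 and 4.48, which do not overlap), Klf4 differed by -1.53. Without Sox17 shRNA replicate 1 or 2, the difference was -1.87 or -2.97 on day 8, -1.67 or -2.83 on day 10, and 0.45 or -0.92 on day 4. In the Sox17 shRNA arm replicate 1 had the lower Sox17 level on 5 of 5 days from day 4, and the lower Klf4 level on 4 of these 5. The same was true of Klf5 on 4 of 5 days and of Klf2 on 2 of 5. On a second Klf4 probe set, 1417395_at, replicate 1 was the higher one on day 4 (6.10 against 6.02) and day 5 (5.54 against 5.32). The day 4 replicates also differed in bioB signal (9.37 against 6.83). The genes were chosen on these arrays and no share over all genes was taken, so nothing is read from the counts.

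Klf2 differed between the arms in a direction that changed with the day. Its Sox17 shRNA arrays read 11.23 on day 0, 6.86 and 6.54 on day 2, 6.73 and 7.48 on day 4, 6.08 and 5.03 on day 5, 6.61 and 5.95 on day 6, 6.33 and 6.46 on day 8, and 7.25 and 6.95 on day 10. On none of the 7 days did the arrays of the arms overlap. With Sox17 shRNA, Klf2 was lower on day 0 (-0.59) and day 2 (-0.97). It was higher on day 4 (1.15, or 2.23-fold) and day 5 (0.58), lower on day 6 (-1.03, or 2.04-fold) and day 8 (-0.61), and higher on day 10 (0.64). The mean over days 4 to 10 was 0.15, since the days of opposite sign cancel.

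Between days 5 and 6 the mean of Klf2 rose less with Sox17 shRNA than in the control arm. Its group mean with Sox17 shRNA went from 7.11 on day 4 to 5.55 on day 5 and 6.28 on day 6, against 5.95, 4.97 and 7.31 in the control arm. The day 5 replicates of the Sox17 shRNA arm lay 1.06 apart, and replicate 2 (5.03) stood just above the higher control array (5.01). The day 5 difference was therefore 0.06 without replicate 1 and 1.11 without replicate 2. Without the Sox17 shRNA array of highest actin 3′ to 5′ difference, the day 4 difference of Klf2 was 0.78, and without that of day 6 replicate 2 the day 6 difference was -0.70. On day 4 the arrays of like bioB signal gave 0.66 for replicate 1 and 1.65 for replicate 2.

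For Klf5 the arms overlapped on most days. Its Sox17 shRNA arrays read 11.25 on day 0, 8.62 and 8.33 on day 2, 8.66 and 9.06 on day 4, 8.26 and 7.71 on day 5, 7.35 and 8.12 on day 6, 7.11 and 8.13 on day 8, and 7.97 and 8.30 on day 10. The arms did not overlap on 2 of 7 days, day 4, where Klf5 was 1.42-fold higher with Sox17 shRNA (0.51), and day 10, where it was 1.28-fold lower (-0.36). On the other 5 days the differences were 0.10 on day 0, 0.19 on day 2, 0.33 on day 5, 0.10 on day 6 and -0.63 on day 8, and the average over days 4 to 10 was -0.01. The Sox17 shRNA replicates of day 8 lay 1.02 apart, wider than that day's difference.

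Of all 13297 genes, 4.54% had arms that did not overlap on 7 of 7 days, as Klf2 did, 13.8% on at least 6 of 7, as Klf4 did, and 92.7% on at least 2 of 7, as Klf5 did. With 2 arrays a group such separation is common, and these counts come from the contrast by which the genes were chosen, so nothing is read from them. The control arrays in these differences are those of the control time course above, and on each day the 3 genes are read from the same arrays.

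**Figure D3:**
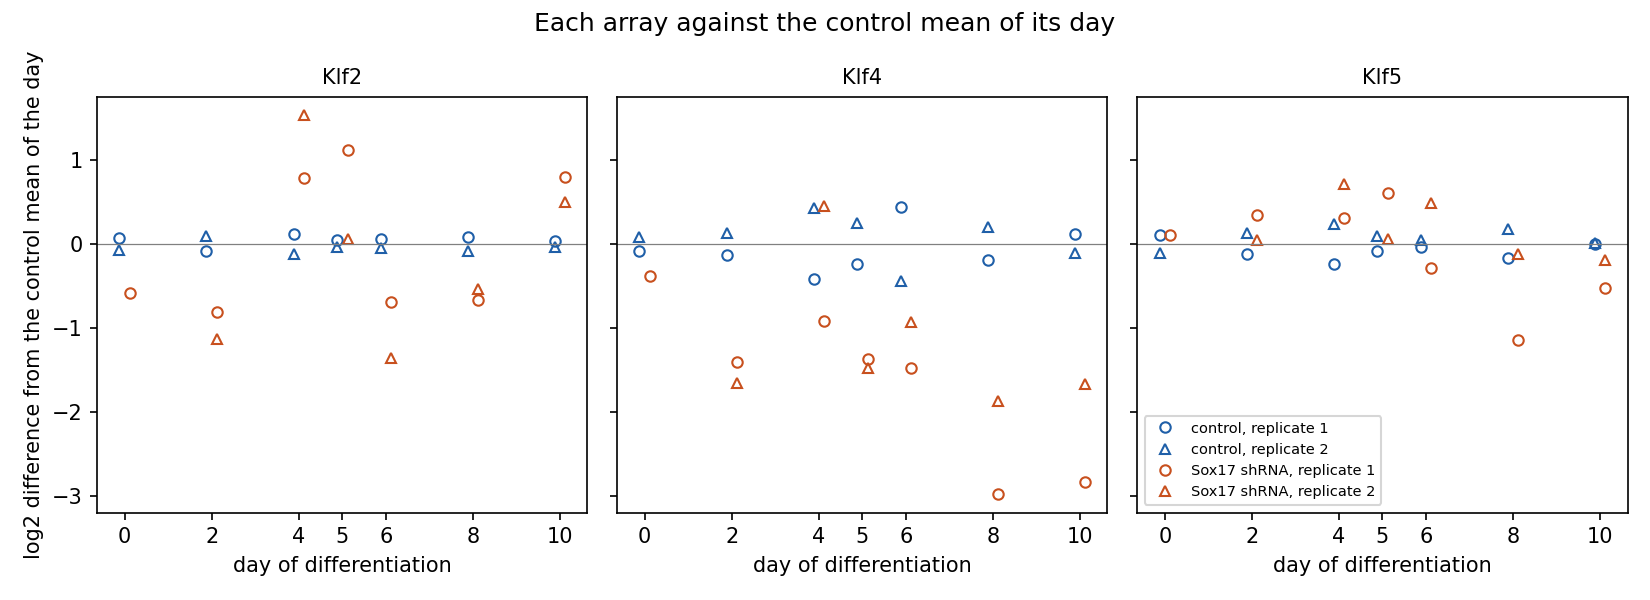
Each array's log2 difference from the control mean of its day, against day of differentiation, in panels for Klf2, Klf4 and Klf5 (blue for control, orange for Sox17 shRNA; circle for replicate 1, triangle for replicate 2). Sox17 shRNA arrays lie below the control arrays for Klf4 on every day but day 4, lie on both sides by day for Klf2, and mostly mix with the controls for Klf5.

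The second probe set of Klf4 also read highest on day 0, and its control arrays of days 8 and 10 lay above those of days 2 to 6. On 1417395_at the control arrays read 10.14 and 9.78 on day 0, 5.98 and 6.17 on day 2, 5.74 and 6.03 on day 4, 6.17 and 6.27 on day 5, 7.04 and 6.37 on day 6, 7.79 and 8.38 on day 8, and 8.00 and 7.97 on day 10. With Sox17 shRNA the arrays of days 8 and 10 read 5.59, 6.51, 5.74 and 6.59, all below their controls. The differences between arms were 0.03 on day 0, -0.94 on day 2, 0.18 on day 4, -0.79 on day 5, -0.84 on day 6, -2.03 on day 8 and -1.83 on day 10. Arrays overlapped on days 0 and 4, and the sign of the day 4 difference was opposite to that of the first probe set. On this probe set the step from day 6 to day 8 in the control arm passed the test (1.37, limma, adjusted p = 0.00769).

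Klf5 had 3 probe sets, and only 1451021_a_at spanned more than 2 log2 units. Probe set 1451739_at read 6.95 and 6.63 on day 0 in the control arm and 5.36 to 6.13 on its later arrays, and differed between the arms by -0.33 (day 8) to 0.50 (day 4). On this probe set the arms overlapped on days 0, 2 and 4. They did not overlap on day 5, with Sox17 shRNA higher, or on days 6, 8 and 10, with Sox17 shRNA lower. The control change of 1451739_at from day 5 to day 10 was 0.03, where 1451021_a_at gave 0.84. Probe set 1430255_at stayed at 3.48 to 4.18 on all arrays, below the median of all values (5.53) on each of the 27, and did not pass the filter on low values. The other 5 of the 6 probe sets passed, with 24 to 27 arrays above that median.

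**Figure D4:**
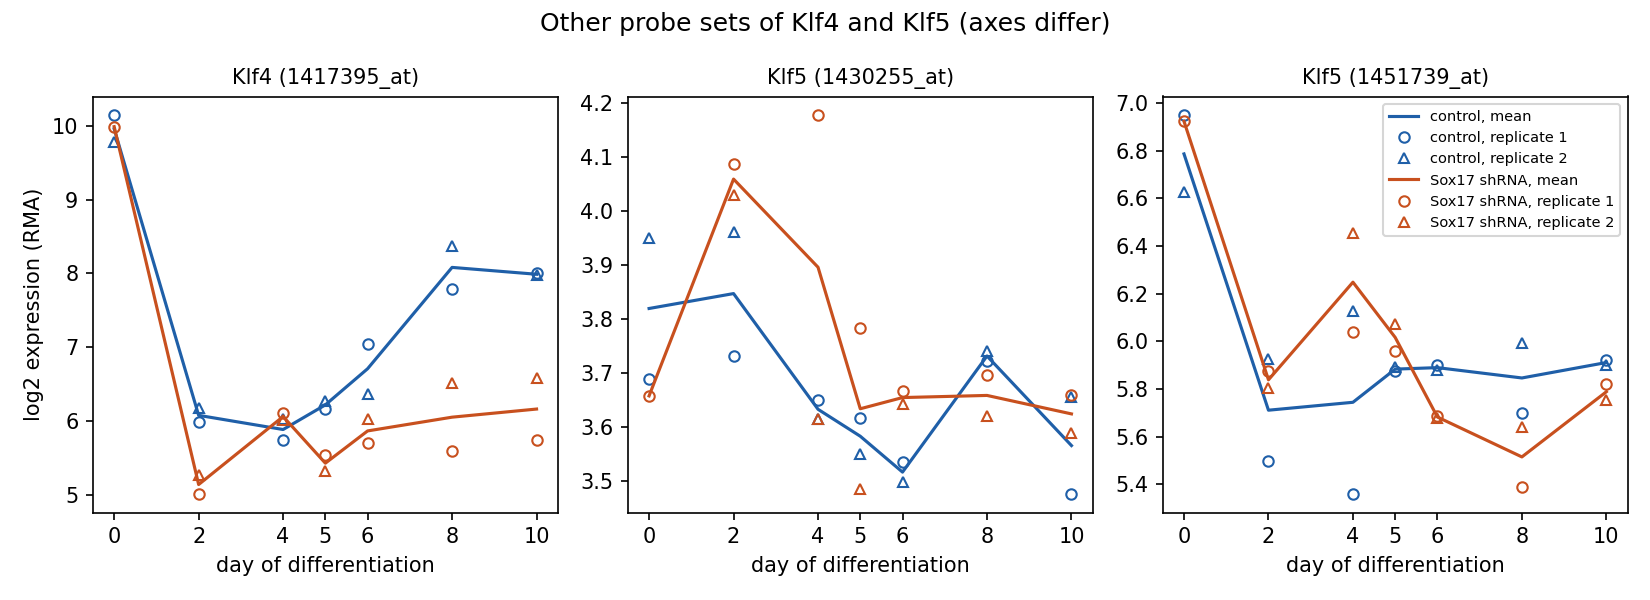
Log2 RMA expression of the probe sets that do not represent their gene in the tests, against day of differentiation, with symbols and colours by array and arm and with separate vertical axes. Klf4 1417395_at shows a late control rise to 8.00 and 7.97 on day 10, Klf5 1451739_at lies at 5.36 to 6.95 and Klf5 1430255_at at 3.48 to 4.18.

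Ordered by level over the 14 groups, Klf4 stood highest at control day 0 (10.84), then Sox17 shRNA day 0 (10.45), control days 8 and 10 (9.43 and 9.37, which overlap), control day 6 (8.09) and control day 5 (7.37). From control day 5 down to Sox17 shRNA day 5 (5.95) each group overlapped the next, so no order is read there, and Sox17 shRNA day 2 (4.76) lay apart at the bottom. The Klf4 means of the Sox17 shRNA arm on days 6, 8 and 10 (6.89, 7.01 and 7.12) were thus next to those of control days 4 and 5 and not to those of control days 8 and 10. Klf2 ran from 11.82 (control day 0), 11.23 (Sox17 shRNA day 0) and 7.67 (control day 2) to 4.97 (control day 5), which lay apart below Sox17 shRNA day 5 (5.55). From control day 6 (7.31) through Sox17 shRNA days 4 and 10 (7.11 and 7.10) to control day 8 neighbouring Klf2 groups overlapped, and so did those from control day 10 (6.45) to Sox17 shRNA day 5. For Klf5 the day 0 groups (11.25 and 11.14) overlapped, Sox17 shRNA day 4 (8.86) came next and apart, and each of the other 11 groups, from 8.49 to 7.62, overlapped its neighbour.

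Over the 14 group means Klf2 and Klf5 had a Pearson r of 0.92 (Spearman 0.53), Klf2 and Klf4 of 0.69 (0.41), and Klf4 and Klf5 of 0.65 (0.18). Without the day 0 groups these were 0.36, 0.09 and -0.15 over 12 means, so the likeness rests mostly on the high level in stem cells. The levels of all genes come from the same arrays. Among 7936 other genes whose means spanned at least 1 log2 unit, those most like Klf2 were Dock6 (r = 0.976), the histone demethylase Kdm3b (0.974), the chromatin protein Baz2a (0.967), Wdtc1 (0.964) and the actin nucleator Cobl (0.962). Those most like Klf4 were the glycogen synthase Gys1 (0.918), Vps39 (0.913), BC028528 (0.912), the ubiquitin ligase Nedd4l (0.903) and Acyp1 (0.900). For Klf5 they were Mms19 (0.974), 2310061I04Rik (0.972), Kyat1 (0.971), Cobl (0.970) and Tulp2 (0.969). Without day 0 the r of these genes was 0.701 to 0.845 for Klf2, 0.809 to 0.853 for Klf4 and 0.631 to 0.863 for Klf5, and of the 15 places 2 went to Cobl.

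The other Klf genes, 14 in the list with 12 tested, moved less than the 3 members at the start of differentiation. From day 0 to day 2 in the control arm 1 rose and 6 fell, with a median of -0.62 against 0.02 over all genes, of which 15.4% fell and 16.6% rose. Klf3, a repressor known from red cells and fat, changed by -1.82 ± 0.18 (limma, adjusted p = 5.37e-07), Klf10, a TGF-beta inducible gene, by -1.75, Klf11 by -1.26 and Klf7 by 1.14. From day 0 to day 10, 3 rose and 7 fell (median -0.46 against -0.13 over all genes, of which 31.5% rose and 40% fell). Klf9 changed by -2.39 (limma, adjusted p = 4.70e-10), Klf15 by -2.25 and Klf10 by -2.08, while Klf6 rose by 1.99 (2.34e-05). Of the related Sp factors, 6 of 9 were tested. On day 2 0 were called (limma, 2 at an unadjusted p below 0.05), and on day 10 3 were higher and 1 lower.

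Between the arms, averaged over days 4 to 10, 3 of the 12 other Klf genes were called higher with Sox17 shRNA and 1 lower, where 27% of all genes were called in either direction. Klf1, the red cell factor, was higher by 0.77 ± 0.19 (limma, adjusted p = 0.00502), Klf14 by 0.53 (0.000428) and Klf15 by 0.29 (0.00277), and Klf11 was lower, at -0.30 (0.000329). Without day 4 replicate 1 of the Sox17 shRNA arm 7 were called. Klf14 averaged 5.02 and 4.48 in the arms, below the median of all values. The average difference of Klf4 (-1.51) was larger in size than that of any other Klf gene tested. Those of Klf2 (0.15) and Klf5 (-0.01) lay inside the family's range. The members were chosen by their differences between the arms, so nothing is read from their place in the family. The Klf2 average also joins days of opposite sign, such as 1.15 on day 4 and -1.03 on day 6. Of the Sp factors only Sp3 was called, at -0.26 (limma, adjusted p = 0.0241), and it was not called when replicate 2 of day 4 or replicate 1 of day 6 was left out of the control arm, or replicate 2 of day 6 or replicate 1 of day 8 out of the other arm. Without Sox17 shRNA day 5 replicate 2, 2 Sp genes were called.

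The network that Klf2, Klf4 and Klf5 belong to in stem cells, 19 naive pluripotency genes, fell with them in the control arm. On day 2 15 of 19 had fallen and 0 had risen, led by Tcl1 (-4.84), Tfcp2l1 (-3.94) and Tet2 (-3.85). On day 10 all 19 were lower than on day 0 (median -3.66), led by Nr0b1 (-6.34), Zfp42 (-6.20) and Nanog (-5.72). The mean log2 level of the list was 10.13 to 10.18 on control arrays on day 0 and 6.49 to 6.50 on day 10, whereas the change of Klf4 over the same days was -1.47. Primed epiblast genes, 11 of 13 of them, rose on day 2 (median 1.74) and 0 fell.

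With Sox17 shRNA, naive genes were called higher on average over days 4 to 10, mostly on days 4 and 5. Over days 4 to 10, 10 of 19 were higher and 1 lower (27% of all genes were called), with a median of 0.44 against 0.01 over all genes. Zfp42 was 3.77-fold higher (limma, adjusted p = 8.86e-06), Dppa3 3.06-fold (4.96e-05) and Nanog 2.68-fold (0.000727). On day 4, where 5.14% of all genes were called, 6 were higher and 0 lower (Dppa3 2.38, Zfp42 2.23 and Fbxo15 2.15), but 0 were called without control replicate 1 and 3 without control or Sox17 shRNA replicate 2. On day 5, where 9.39% were called, 7 were higher and 0 lower, with 0 called without either control array or without Sox17 shRNA replicate 1, and 13 without replicate 2. On day 6 and on day 8 1 of 19 was higher and 0 lower, where 5.2% and 4.82% of all genes were called, and on day 10 1 was higher and 2 lower, where 10% were. Left-out arrays moved these counts to between 0 and 3 on day 6, 0 and 1 on day 8, and 0 and 1 on day 10. From day 4 on, the naive genes were thus called least on days 6, 8 and 10, and the Klf4 difference was largest on days 8 and 10. The mean level of the list was still higher with Sox17 shRNA on these days. It was 6.46 to 7.11 against 6.36 to 6.39 on day 6 and 6.414 to 6.691 against 6.132 to 6.407 on day 8. On day 10 it was 6.71 to 6.92 against 6.49 to 6.50. The higher Klf2 and Klf5 of day 4 lie on the same arrays as the naive genes of that day. The part of the naive genes in the differences of Klf2, Klf4 and Klf5 was not tested.

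The LIF and STAT3 list, 15 of 16 genes tested, holds genes of the route known to act on Klf4 and Klf5, and also targets of STAT3. In the control arm 9 fell and 3 rose on day 2, where 32.1% of all genes were called, led by the STAT3 target and feedback inhibitor Socs3 (-5.09, limma, adjusted p = 4.21e-11), Bcl3 (-2.38) and the kinase Pim1 (-2.34). On day 10, 6 were lower and 3 higher than on day 0 (median -0.11), while 40% of all genes were lower and 31.5% higher. Between the arms 5 were higher and 0 lower with Sox17 shRNA over days 4 to 10 (median 0.19), which is 33.3% called against 27% of all genes, led by Pim1 (0.57), Socs3 (0.34) and Il6st (0.33), the shared receptor chain. On day 4 Socs3 was 2.76-fold higher (limma, adjusted p = 0.00205), Pim1 higher by 1.23 and Il6st by 0.78, and 4 of 15 were called, against 1 without control replicate 1 and 2 without control replicate 2. On day 5 3 were higher (Pim1 1.44, Myc 1.16 and Il6st 0.62), 1 without control replicate 1 or without Sox17 shRNA replicate 2. On day 10, where 10% of all genes were called, 0 of 15 were (limma, 1 at an unadjusted p below 0.05). Klf4 differed by -1.42 on day 5 and by -2.25 on day 10. RNA levels of these genes do not measure the activity of STAT3, and the part of this pathway in the Klf4 difference was not tested.

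The list for the Erk5 and Mef2 route to Klf2, with genes that Klf2 is known to act on in endothelium, had 13 genes tested. In the control arm 12 of 13 were higher on day 10 than on day 0 and 1 lower (median 1.39), where 31.5% of all genes were higher, led by Cited2 (3.19), Timp3 (2.93) and Thbd (2.54), while Klf2 itself was 41.1-fold lower (limma, adjusted p = 2.26e-11). With Sox17 shRNA 4 were lower and 1 higher over days 4 to 10, or 38.5% called against 27% of all genes. The transcription factor Mef2c was lower (-1.42 ± 0.12, limma, adjusted p = 7.97e-08), as was the endothelial receptor thrombomodulin, Thbd (-1.24, 1.08e-06), and Timp3 was higher (0.56). Mef2c is also a heart gene. Endothelial markers, 17 of 18 tested, were called lower in 2 and higher in 0 (Emcn -0.70 and Mmrn2 -0.20), or 11.8%, below the 27% of all genes. The count was 1 without control day 6 replicate 2 or Sox17 shRNA day 10 replicate 2, 4 without Sox17 shRNA day 6 replicate 2 or day 8 replicate 1, and 5 without Sox17 shRNA day 10 replicate 1. The mean level of the endothelial markers on day 6 was 7.17 to 7.19 on control arrays and 6.47 to 6.88 with Sox17 shRNA. Klf2 differed by -1.03 on that day. On day 10, when Klf2 differed by 0.64, their mean level was 6.82 to 6.83 against 6.09 to 6.95. The part of endothelial cells in the Klf2 differences was not tested.

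Heart muscle markers were called lower with Sox17 shRNA on days 6, 8 and 10, while Klf4 differed most on days 8 and 10. Visceral endoderm and epithelial genes were called in larger number on average over the days than on day 8 or day 10. The average draws on 10 arrays per arm and a single day on 2, so these counts do not compare the size of the differences. The visceral endoderm median was -0.57 over days 4 to 10, -0.29 on day 8 and -1.23 on day 10. The epithelial median was -0.33 over days 4 to 10, -0.28 on day 8 and -0.35 on day 10. Heart muscle genes were lower with Sox17 shRNA in 14 of 16 over days 4 to 10 (median -1.81; 27% of all genes called), led by Myl7 (-3.55, limma, adjusted p = 4.99e-11), Myh6 (-3.08) and Myl2 (-2.85). Their mean log2 level was 10.08 to 10.25 on control arrays on day 8 and 7.19 to 7.52 with Sox17 shRNA, and 9.77 on both control arrays on day 10 against 7.28 to 7.42. On day 8 and on day 10 14 of 16 were called lower (median -2.68 on day 10), and 14 without any single array of day 10. On day 6, where 5.2% of all genes were called, 13 of 16 were called lower (median -2.81), while Klf4 differed by -1.21. Over days 4 to 10 visceral endoderm genes were lower in 9 of 13 (Cubn -2.73, Amn -1.70 and Dab2 -1.15), and epithelial genes in 9 of 17 (Cldn6 -1.19, Epcam -0.90 and Cldn7 -0.89). On day 8, where 4.82% of all genes were called, 0 of 13 visceral endoderm genes (limma, 3 at an unadjusted p below 0.05) and 1 of 17 epithelial genes were called. On day 10, where 10% were, 2 of 17 epithelial genes were called (1 without either control array or Sox17 shRNA replicate 1). Of the 13 visceral endoderm genes 5 were called on day 10, and 1 without either control array or Sox17 shRNA replicate 2. On day 10 the mean level of visceral endoderm genes was 8.89 to 8.90 against 7.15 to 8.17 with Sox17 shRNA, and that of epithelial genes 8.71 to 8.77 against 8.12 to 8.69. The part of these cell types in the Klf4 difference was not tested.

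Smooth muscle genes, which Klf4 is known to repress, split, with 2 of 11 higher and 2 lower over days 4 to 10, where 27% of all genes were called. Myocd, the cofactor of smooth and heart muscle genes, was lower (-1.60), Tagln was higher (1.07) and Des lower (-0.44). The list's mean level on day 10 was 8.06 to 8.07 in the control arm and 7.87 to 8.10 with Sox17 shRNA. Fibroblast and feeder cell genes were higher in 9 of 14 and lower in 2 (Col1a1 1.20, Col1a2 0.88 and Pdgfra -0.88), at a mean level of 9.39 to 9.43 in the control and 10.24 to 10.37 with Sox17 shRNA on day 10. Blood genes were higher in 11 of 13 and lower in 0, led by the embryonic globins Hbb-y (3.05), Hbb-bh1 (2.31) and Hba-x (2.08). Genes of the trophoblast list were higher in 5 of 9 and lower in 0 (median 0.68), with the Klf5 average at -0.01. Of that list Elf5 and Tpbpa did not pass the filter and Prl3d1 had no probe set of its own. Its tested genes are not confined to trophoblast, and Krt7 is also in the epithelium list. The count is therefore not read as trophoblast cells, and its relation to Klf5 was not tested. Of 9 surface ectoderm genes 2 were lower (Trp63 -0.53 and Tfap2a -0.39).

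The other lists are given over days 4 to 10, where 27% of all genes were called. Definitive endoderm genes, a list that includes Sox17, were lower in 9 of 13 and higher in 2 (median -1.04). By day, 6 of these 13 were lower on day 4, where 5.14% of all genes were called, and 4 on day 10, where 10% were. On day 5, where 9.39% of all genes were called, 4 were lower and 3 higher. On day 6 and on day 8 2 were lower, where 5.2% and 4.82% of all genes were called. Immediate early genes, a class that Klf2 and Klf4 are also known to join, were higher in 1 of 15 and lower in 0, with 0 to 2 called when single arrays were left out. Genes of growth arrest were higher in 3 of 13, or 23.1%, with 1 called without each of 6 single arrays (control day 4, 5, 6 and 8 replicate 1, control day 10 replicate 2 and Sox17 shRNA day 5 replicate 2). Genes of the cell cycle were higher in 5 of 13, and in 8 without Sox17 shRNA day 8 replicate 2. Primed epiblast genes were higher in 1 and lower in 3 of 13. In the control arm on day 10 against day 0, where 31.5% of all genes were higher and 71.5% were called in either direction, heart genes were higher in 15 of 16 (median 5.45), smooth muscle genes in 9 of 11, epithelial genes in 8 of 17 with 2 lower (Krt8 4.78, Krt18 4.53 and Cldn6 3.61), and endothelial genes in 11 of 17 with 2 lower. The called share was 58.8% for epithelium and 76.5% for endothelium. The late rise of Klf4 in the control arm lies on the same arrays as these.

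**Figure D5:**
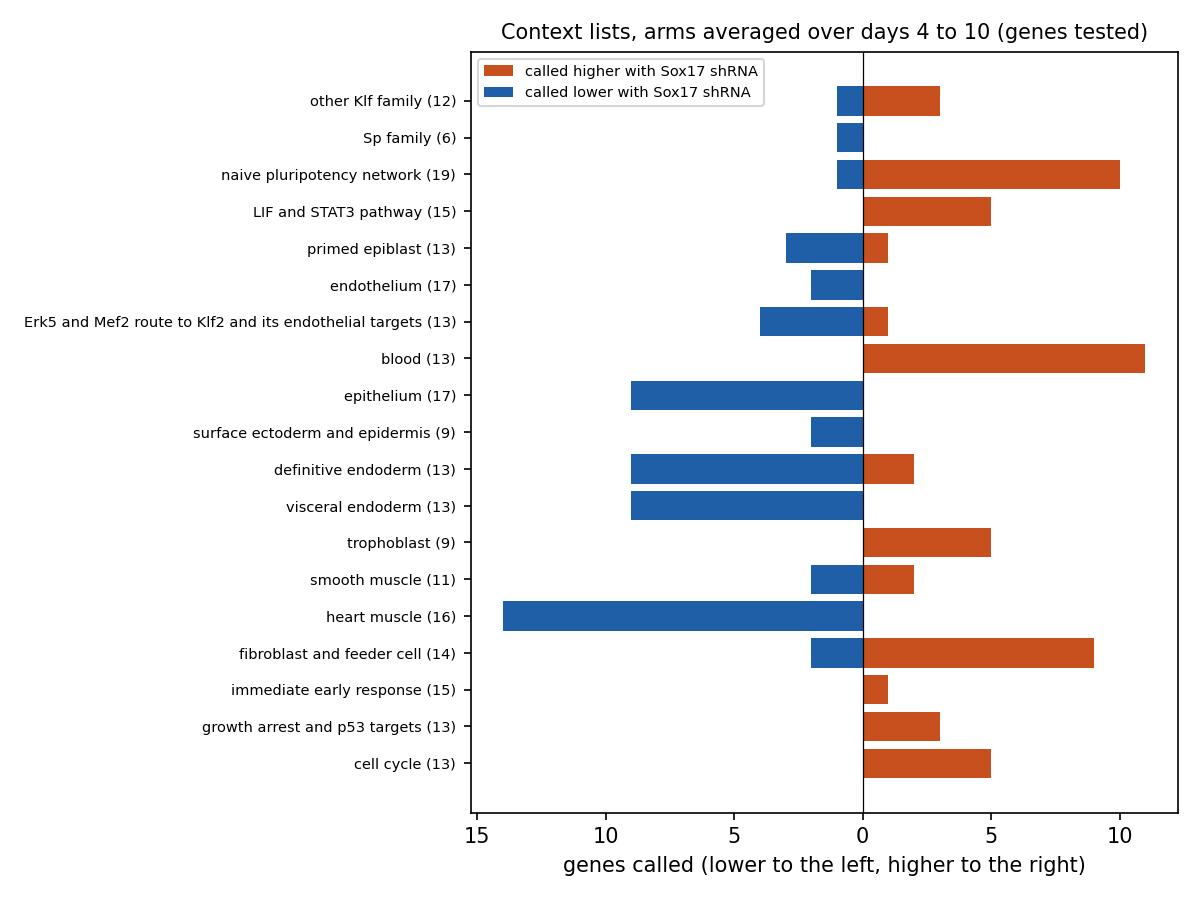
Number of genes called (limma, adjusted p below 0.05) higher to the right or lower to the left with Sox17 shRNA, averaged over days 4 to 10, for each gene list, with the number of genes tested in brackets. The longest bars to the left are heart muscle (14 of 16), visceral endoderm, definitive endoderm and epithelium (9 each), and those to the right blood (11 of 13) and naive pluripotency (10 of 19).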

How the data were processed

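Gene expression was measured on 27 Affymetrix arrays. The deposited values are log2 expression, 1 per probe set and array, made by the authors with RMA per the submitters' processing notes. The RMA version, and whether 1 run covered every array, is not given in the labels or headers. Values ran from 2.66 to 14.5, with array medians of 5.50 to 5.56. Arrays carry no counts, and their number limits the precision.

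Probe sets with 1 symbol in the platform's annotation (34958; 932 had several and 9211 were unlisted) were kept when above the median of all values, 5.531, on at least 2 arrays (23536). Each gene was represented by its probe set of highest mean (13297 genes). A mean per group was fitted with limma 3.58.1 in R 4.3.3 (13 residual degrees of freedom, eBayes with trend, two-sided tests, Benjamini-Hochberg over all genes, threshold 0.05), and the fit was tested on simulated data. Members and gene lists (268 genes in 19 lists, 246 tested) were selected on earlier results of these data. Of a list, the 3 called genes of largest size are named, and every called other Klf gene over days 4 to 10. Neighbours are the 5 genes of highest Pearson r. Alternatives were each array left out, other probe sets, filters, centring, the bioB signal as a covariate, a replicate block and the control arm alone.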

Additional observations from a re-analysis of the deposited data

Results flagged for a closer look

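The difference of Klf2 between the arms changed sign with the day, with every array of 1 arm beyond those of the other. It was -0.59 on day 0, -0.97 on day 2, 1.15 on day 4, 0.58 on day 5, -1.03 on day 6, -0.61 on day 8 and 0.64 on day 10 (Sox17 shRNA minus control, log2). Klf5 likewise had its arms apart in opposite directions on day 4 (0.51) and day 10 (-0.36). Whether these differences vary between days was not tested, since the genes were chosen by this contrast.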

How the results depend on the processing

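In the control arm, testing every probe set, no filter on low values and eBayes without a trend changed no direction and no call in 36 comparisons each. Klf4 from day 4 against day 2 (0.18) became -0.19 with the bioB signal as a covariate and -0.19 on probe set 1417395_at, with a leave-one-out range of -0.24 to 0.60. Klf5 over these days (0.07) became -0.065 with the bioB signal and -0.000488 with centred arrays, with a range of -0.17 to 0.30. On probe set 1451739_at the Klf5 steps were 0.14 (days 4 to 5), 0.0062 (5 to 6) and -0.043 (6 to 8), and 0.028 from day 5 to day 10 (adjusted p = 0.926). That last change was 0.68 with centred arrays (0.0506) and 0.76 to 0.93 with an array left out. Leave-one-out ranges were -0.11 to 0.066 for Klf5 from day 5 to day 6, -0.26 to 0.13 for Klf4 from day 8 to day 10, -1.60 to -1.21 for Klf4 on day 8 against day 0, and -1.10 to -0.86 for Klf2 from day 4 to day 5, which was -1.02 with the bioB signal (adjusted p = 0.0576).

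In the control arm alone 5 steps passed the test that otherwise did not: 0.90 for Klf4 and -0.70 for Klf5 from day 4 to day 5, 1.34 for Klf4 and 0.63 for Klf5 from day 6 to day 8, and -0.54 for Klf2 from day 8 to day 10. Klf4 from day 6 to day 8 also passed on probe set 1417395_at (1.37), with the bioB signal (1.26, adjusted p = 0.0498) and with a replicate block (1.34, adjusted p = 0.0379). The replicate block changed no other call of the 3 genes. Deviations of same-numbered arrays of the arms at a day correlated at 0.0986 to 0.683 over 6 pairs, with 5 above 0.1 and 0 below 0. Over all 78 pairs of groups the range was -0.292 to 0.796, with 28 above 0.1 and 21 below 0. Same-numbered arrays of a day thus deviated alike more often than groups in general. The labels do not say that the numbers mark pairs. The main fit therefore held no pairing, and the replicate block was the alternative.

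Between the arms, Klf4 on probe set 1417395_at was -0.94 on day 2 and -0.79 on day 5, and Klf5 on 1430255_at was -0.073 on day 8 and 0.059 on day 10. Without the 2 arrays of highest actin difference Klf2 was 0.78 on day 4 and -0.70 on day 6, Klf4 -0.92 on day 4 and Klf5 -0.28 on day 6. With an array left out, Klf2 was 0.78 to 1.53 on day 4, 0.056 to 1.11 on day 5 and -1.36 to -0.70 on day 6, Klf4 -0.92 to 0.45 on day 4, -2.97 to -1.87 on day 8 and -2.83 to -1.67 on day 10, and Klf5 -0.28 to 0.49 on day 6 and -1.14 to -0.12 on day 8. Among the gene lists over days 4 to 10, the bioB covariate raised the called other Klf genes from 4 to 7, the block or this covariate the immediate early genes from 1 to 2, and no filter on low values lowered the surface ectoderm genes from 2 to 1. The causes were not tested.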
